A study of Mus musculus with 6 samples.

Results

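Expression of 9 genes that write, maintain and remove DNA methylation was examined in day 4 embryoid bodies (D4 EBs) from 2 edited mouse ES cell lines. The genes were chosen by symbol and were the methyltransferases *Dnmt1*, *Dnmt3a*, *Dnmt3b* and *Dnmt3l*, the maintenance factor *Uhrf1*, the oxygenases *Tet1*, *Tet2* and *Tet3*, and the glycosylase *Tdg*. All 9 were found among the 15266 genes of the deposited table, and 8 of them, all but *Tdg*, passed the filter for low counts. The control line, EVX1-Δfs (Clone 14), carries frameshift deletions in both alleles of *Evx1* and so lacks functional EVX1, but still makes the antisense RNA *Evx1as*. The Del#3 line carries a deletion of 2.6 kb that takes away the promoter common to *Evx1* and *Evx1as* and further *Evx1as* exons. Neither group is therefore wild type: EVX1 is lost in all 6 libraries, and the lines differ in *Evx1as* and in which cells they were grown from. Both were derived from W9.5 mESCs, were kept with 1000 U/ml LIF, and were differentiated without LIF in serum for 4 days, 3 times each. EVX1-Δfs was grown from a picked clone. Del#3 also came from picking of clones, but the sources used here do not say how many lie behind its libraries. An effect of the deletion and a difference between clones cannot be told apart here. The study used the comparison to ask whether *Evx1as* does anything beyond what EVX1 does.

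DNA methylation at CpG sites is set up by DNMT3A and DNMT3B, with DNMT3L as a partner that has no catalytic activity of its own. It is then copied to the new strand after replication by DNMT1, which UHRF1 brings to hemimethylated sites. TET enzymes oxidise methylated cytosine, and TDG cuts out the oxidised bases so that repair can restore an unmethylated cytosine. In the mouse embryo the genome is remethylated as the epiblast leaves the naive state. Imprinted genes depend on methylation that must be kept through this wave. Methylation was not measured in these EBs.

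The libraries matched their labels at the edited locus. *Evx1* was at 2655 to 3671 normalized counts in EVX1-Δfs and at 32.5 to 38.3 in Del#3, and *Evx1as*, listed as 5730457N03Rik, at 580.1 to 689 and 16.7 to 32.0. A normalized count is a gene's read count divided by the size factor of its library. Between 9024579 and 15699124 reads on listed genes lay behind each library. Markers of several cell types were present over the 6 libraries, with the epiblast gene *Pou5f1* at 4444 to 7890 normalized counts, the streak genes *Eomes* at 2072 to 4027 and *Mesp1* at 713 to 1519, the endoderm gene *Cer1* at 1448 to 2580 and the vascular gene *Kdr* at 1031 to 2281. The neural gene *Sox3* was at 60.1 to 145 and *Pax6* at 3.19 to 10.5. The EBs are mixtures, so fewer cells of a type and less RNA per cell cannot be told apart in any value below.

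Per length of transcript, *Dnmt3b* was by far the most abundant of the 9 genes. Its level was 217 ± 55.4 RPKM (SD, n = 3) in EVX1-Δfs and 223 ± 48.0 RPKM (SD, n = 3) in Del#3, where RPKM are reads per kilobase of exon, scaled to the reads on all listed genes. *Dnmt1*, the maintenance enzyme, followed at 74.9 ± 13.7 and 83.3 ± 11.5 RPKM (SD, n = 3 each). Its partner *Uhrf1* was at 48.7 ± 5.87 and 53.4 ± 1.74 RPKM (SD, n = 3 each). The other *de novo* factors were far lower. *Dnmt3a* was at 6.36 ± 0.351 and 6.61 ± 1.45 RPKM (SD, n = 3 each), and *Dnmt3l* at 5.18 ± 0.383 and 4.37 ± 0.982 RPKM (SD, n = 3 each). The TET genes lay lower again, in the order *Tet3*, *Tet1*, *Tet2*. *Tet3* was at 2.03 ± 0.525 RPKM (SD, n = 3) in EVX1-Δfs and 2.43 ± 0.706 RPKM (SD, n = 3) in Del#3. *Tdg* was at the bottom, with 0.0517 ± 0.0625 and 0.0559 ± 0.0399 RPKM (SD, n = 3 each). Its place is uncertain, because only 1 to 6 reads lay behind each value and the gene has near-identical copies, described below.

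The order of the 9 levels was the same in each of the 6 libraries. The ranges over the 6 libraries overlapped for 3 pairs of neighbours in this order, which were *Dnmt3a* and *Dnmt3l*, *Tet3* and *Tet1*, and *Tet1* and *Tet2*. Those of the other 5 pairs did not overlap. The order also held when the longest coding transcript was used for length in place of all exons, although the mean over the 6 libraries then went from 6.49 to 11.1 RPKM for *Dnmt3a* and from 4.77 to 7.83 RPKM for *Dnmt3l*. Exon lengths were taken from GENCODE on NCBIM37, the assembly also known as mm9, and ranged from 2.99 kb for *Dnmt3l* to 16.64 kb for *Dnmt3a*. By mean normalized count, without regard to length, *Dnmt3b* was above 99.4% of the listed genes, *Dnmt1* above 97.8% and *Tet2* above 28.9%.

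**Figure D1:**
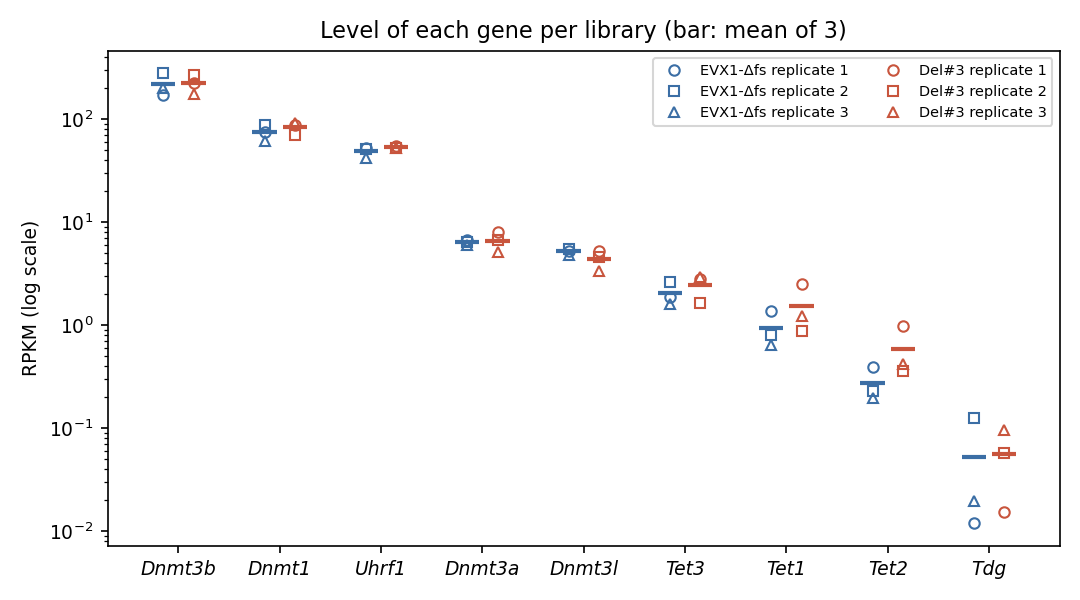
Level of each of the 9 genes in RPKM (log scale) in the 3 EVX1-Δfs (blue) and 3 Del#3 (red) libraries, with a symbol per replicate number and a bar at the mean of each line. Levels ran from 220.1 RPKM for *Dnmt3b* to 0.0538 RPKM for *Tdg*, as means of all 6 libraries, and the order was the same in every library. *Tdg* rests on 1 to 6 reads a library, so its place is uncertain.

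Del#3 and EVX1-Δfs did not differ past the threshold in any of the 8 genes that passed the filter, each of which had an adjusted p-value of 1.00 by limma. A gene was called where this value was under 0.05, and 0.0155% of all 12891 genes tested were, namely *Evx1* and *Evx1as*. Before adjustment, 0 of the 8 were under 0.05, against 1.03% of all genes. edgeR's quasi-likelihood test and DESeq2's Wald test on the recovered reads also called 0 of them. For *Tet2*, edgeR's unadjusted p-value was 0.0456 and that of DESeq2 0.0384, and over all 20 alternatives it ranged from 0.0111 to 0.267. Replicate numbers were taken to mark days, since each differentiation was started on its own day with the lines side by side, but nothing used here states that equal numbers mark the same day. In a fit with a replicate block on that basis, limma called 0 of the 8, against 0.0233% of all genes. Before adjustment, *Tet1* and *Tet2*, that is 2 of the 8, were under 0.05 in that fit, against 4.62% of all genes, or 3.64% counting those higher in Del#3 as both were. The 8 genes are described below by role, with Del#3 compared with EVX1-Δfs on the scale of log2(normalized count + 1).

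The maintenance genes were the most even of the group. *Dnmt1* (NCBIM37 chr9:20711650-20757317, minus strand) was at 4088, 4927 and 3632 normalized counts in EVX1-Δfs replicates 1 to 3, and at 4472, 4178 and 5085 in Del#3. The lines overlapped, and Del#3 was higher in 2 of 3 same-numbered pairs. The log2 fold change of 0.13 had a standard error of 0.22 and a 95% interval of 0.774-fold to 1.54-fold. *Uhrf1* (chr17:56442744-56462909, plus strand) was at 2322, 2323 and 2016 in EVX1-Δfs and at 2297, 2543 and 2316 in Del#3. Its highest library was only 1.26-fold above its lowest, the smallest spread of the 9 genes. At a log2 fold change of 0.11 (standard error 0.21), the 95% interval ran from 0.782-fold to 1.48-fold. A processed copy of *Uhrf1*, annotated as Gm5648 on the X chromosome, matches 71.9% of the *Uhrf1* transcript at 97.7% identity, and 10.2% of its 100-base windows occur unchanged in the copy. How reads from these windows were assigned was not checked here.

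Among the *de novo* genes, *Dnmt3b* varied by up to 1.71-fold between libraries, with near-equal means in the lines. This gene (chr2:153475186-153513466, plus strand), which encodes the main *de novo* enzyme of the early embryo, was at 9065, 15075 and 11656 normalized counts in EVX1-Δfs replicates 1 to 3 and at 11251, 15542 and 9277 in Del#3. In both lines replicate 2 was the highest, and the lines overlapped throughout. Between the lines the log2 fold change was 0.0088 ± 0.28 (standard error), with a 95% interval from 0.651-fold to 1.55-fold. *Dnmt3a* (chr12:3806007-3914443, plus strand) was at 1158, 1119 and 1128 in EVX1-Δfs, where it hardly varied. In Del#3 it was at 1307, 1246 and 898, on both sides of the EVX1-Δfs values. Here the log2 fold change was 0.00028 ± 0.23 (standard error), with a 95% interval from 0.701-fold to 1.43-fold. For both genes the sign of so small a difference changed when single libraries were left out, from -0.19 to 0.19 for *Dnmt3b* and from -0.10 to 0.17 for *Dnmt3a*.

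*Dnmt3l*, which encodes the partner without catalytic activity, was the only gene of the 8 whose lines did not overlap in normalized counts, and this was lost with scaling to total reads. At its locus (chr10:77504692-77526367, plus strand) EVX1-Δfs had 162, 175 and 161 normalized counts and Del#3 had 153, 153 and 104, so each Del#3 library lay below each EVX1-Δfs library. In RPKM, which are scaled to total reads, they overlapped, with 5.24, 5.52 and 4.76 in EVX1-Δfs and 5.25, 4.54 and 3.31 in Del#3. On normalized counts an exact permutation test (two-sided) gave p = 0.1, and 3 libraries a line cannot give less. That is 1 of 8 genes, against 1.8% of all genes tested, and 0 of 8 were higher in Del#3 without overlap, against 1.71%. The log2 fold change of -0.30 (standard error 0.29) had a 95% interval from 0.524-fold to 1.26-fold, so the test did not separate it from the spread. Del#3 replicate 3 was the lowest library, and without it the log2 fold change was -0.11. Between 97 and 246 reads lay behind each value, and 2.24% of its exon bases overlap the opposite-strand gene *Aire*, as 0.799% of those of *Dnmt3a* overlap Gm10485.

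**Figure D2:**
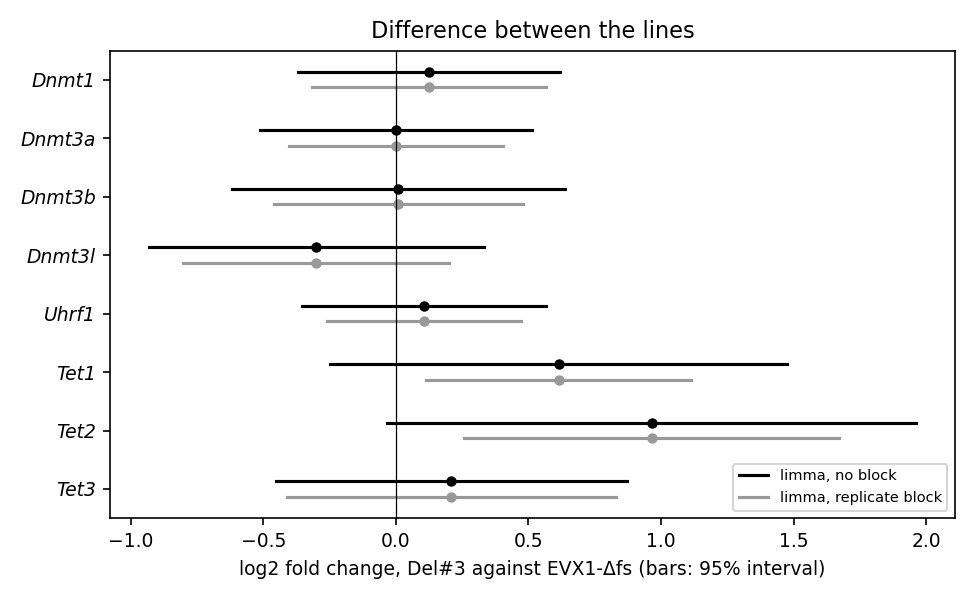
log2 fold change of Del#3 against EVX1-Δfs for the 8 genes that passed the filter (points), with 95% intervals by limma without a block (black) and with a replicate block (grey). The black intervals all include 0, and with the block those of *Tet1* (0.12 to 1.11) and *Tet2* (0.26 to 1.67) lie above it before adjustment.

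*Tet1* and *Tet2* showed the largest differences of the group, and were high and low in the same libraries. *Tet1*, the main TET gene of ES cells, lies at chr10:62267318-62361866 on the minus strand. It was at 207, 124 and 106 normalized counts in EVX1-Δfs replicates 1 to 3 and at 357, 146 and 189 in Del#3. *Tet2* (chr3:133126643-133207354, minus strand) was at 37.6, 22.3 and 20.1 in EVX1-Δfs and at 87.7, 37.2 and 40.6 in Del#3. For both genes Del#3 was higher in each of the 3 same-numbered pairs, and replicate 1 was the highest of its line, so that the lines overlapped only through EVX1-Δfs replicate 1. Of the 8 genes, 2 were thus higher in Del#3 in all pairs, against 12.1% of all genes tested, and 1, *Dnmt3l*, was lower in all pairs, against 11%. Scaled to total reads, *Tet1* and *Tet2* were still higher in all pairs, and *Dnmt3l* was lower in 2 of 3.

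The mean of *Tet1* in Del#3 was 1.58-fold that in EVX1-Δfs. The difference between the mean log2 values, a separate measure, was 0.61 (standard error 0.39), and its 95% interval ran from 0.841-fold to 2.78-fold. Within same-numbered pairs the differences were 0.78, 0.23 and 0.82 on the log2 scale. The mean of *Tet2* was 2.07-fold that in EVX1-Δfs. Between its mean log2 values the difference was 0.96 (standard error 0.45), with a 95% interval from 0.977-fold to 3.90-fold. Within pairs it was 1.20, 0.71 and 0.98. In the blocked fit, the unadjusted p-values by limma were 0.0216 for *Tet1* and 0.0133 for *Tet2*, and the adjusted ones 0.947 and 0.852. Neither difference passed the threshold, and only 17 to 110 reads lay behind each *Tet2* value. Without Del#3 replicate 1 the log2 fold changes were 0.25 for *Tet1* and 0.58 for *Tet2*, the lowest when single libraries were left out. With both replicate 1 libraries left out they were 0.53 for *Tet1* and 0.85 for *Tet2*.

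*Tet3* (chr6:83312367-83391672, minus strand) did not follow the other two. EVX1-Δfs had 215, 307 and 201 normalized counts and Del#3 had 300 (299.7), 203 and 337. Replicate 2 was the highest library of one line and the lowest of the other. Its difference was 0.21 on the log2 scale (standard error 0.30), with a 95% interval from 0.731-fold to 1.83-fold, and it ranged from 0.060 to 0.42 when single libraries were left out.

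**Figure D3:**
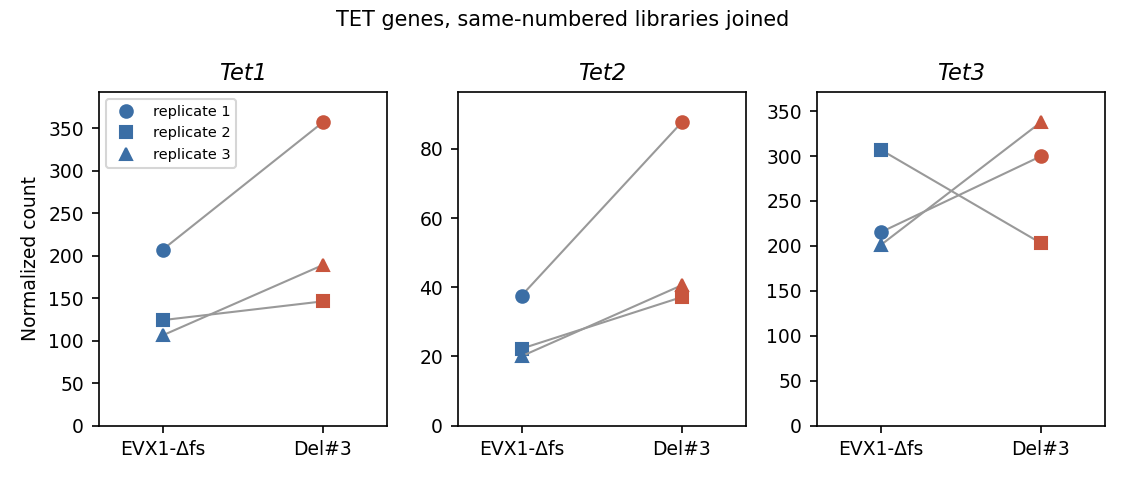
Normalized counts of *Tet1*, *Tet2* and *Tet3* in EVX1-Δfs (blue) and Del#3 (red), with lines joining libraries of the same replicate number. All 3 lines rise for *Tet1* and *Tet2*, and for *Tet3* the line of replicate 2 falls from 307 to 203.

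The sequences around the starts of *Tet1*, *Tet2* and *Tet3* are shown as a description. Whether they bear on the values above was not tested. Each runs from 250 bases before to 50 bases after the RefSeq start on GRCm38.p6, a later assembly than that of the counts. All 3 genes lie on the minus strand. GENCODE lists 7 transcripts of *Tet1*, 2 of *Tet2* and 3 of *Tet3*, and only the RefSeq start was examined for each. Capitals mark CpG sites, the substrate of these enzymes.

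*Tet1*, chr10:62887275-62887574: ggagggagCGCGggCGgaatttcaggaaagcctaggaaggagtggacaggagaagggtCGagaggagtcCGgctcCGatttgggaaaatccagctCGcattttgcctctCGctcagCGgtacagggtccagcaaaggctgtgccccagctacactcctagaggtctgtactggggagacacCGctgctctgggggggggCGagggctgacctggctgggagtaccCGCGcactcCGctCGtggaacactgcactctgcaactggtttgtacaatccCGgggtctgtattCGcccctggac

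*Tet2*, chr3:133544341-133544640: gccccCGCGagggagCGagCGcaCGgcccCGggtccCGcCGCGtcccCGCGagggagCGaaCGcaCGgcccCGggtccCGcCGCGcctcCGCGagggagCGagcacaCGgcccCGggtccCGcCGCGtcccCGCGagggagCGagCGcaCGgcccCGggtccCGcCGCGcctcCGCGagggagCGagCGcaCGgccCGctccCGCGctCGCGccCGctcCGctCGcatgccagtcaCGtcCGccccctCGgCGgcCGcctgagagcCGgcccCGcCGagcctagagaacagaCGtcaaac

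*Tet3*, chr6:83441629-83441928: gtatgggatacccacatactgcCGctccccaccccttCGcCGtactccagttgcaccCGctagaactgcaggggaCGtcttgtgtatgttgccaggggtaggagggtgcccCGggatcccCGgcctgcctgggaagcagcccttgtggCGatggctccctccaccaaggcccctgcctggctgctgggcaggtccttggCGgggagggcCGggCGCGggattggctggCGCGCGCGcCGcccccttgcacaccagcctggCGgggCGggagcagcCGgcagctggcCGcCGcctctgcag

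The *Tet2* window held 57 CpG sites, more than 99.8% of 32851 RefSeq promoter windows of this length, which had a median of 7. *Tet1* held 17, more than 68.6% of windows, and *Tet3* held 22, more than 76.9%. The GC box GGGCGG was searched on both strands and was found once in *Tet1*, once in *Tet2* and 2 times in *Tet3*, as in 35.7% of all windows, and the TATA box TATAAA in none of the 3, against 13.6%. Methylation of the sites was not measured here.

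*Tet1*, *Tet2* and *Tet3* each have more than 8 kb of exons, and long transcripts differed between libraries as a class. Of the genes tested, the 1340 with at least 8 kb of exons had a median log2 fold change of 0.15 in Del#3, and the 455 under 1 kb had one of -0.17, with 0.0022 over all genes tested. Between replicate 1 and the mean of replicates 2 and 3, the medians were 0.47 for the long and -0.37 for the short genes. *Tet1*, with 14.71 kb of exons, and *Tet2*, with 9.2 kb, were 0.97 and 0.98 higher in replicate 1. *Tet3*, with 11.09 kb, was at -0.0063, and *Dnmt3a*, with 16.64 kb, at 0.17. After the log2 values of each library were corrected for length and GC content, an alternative chosen after the data were seen, the log2 fold change of *Tet1* was 0.24 and that of *Tet2* 0.80. With the replicate block as well, limma's unadjusted p-values were 0.258 and 0.0267, so that 1 of the 8 was under 0.05, against 4.51% of the genes with a length, and 0 of 8 were called, against 0.0245%.

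**Figure D4:**
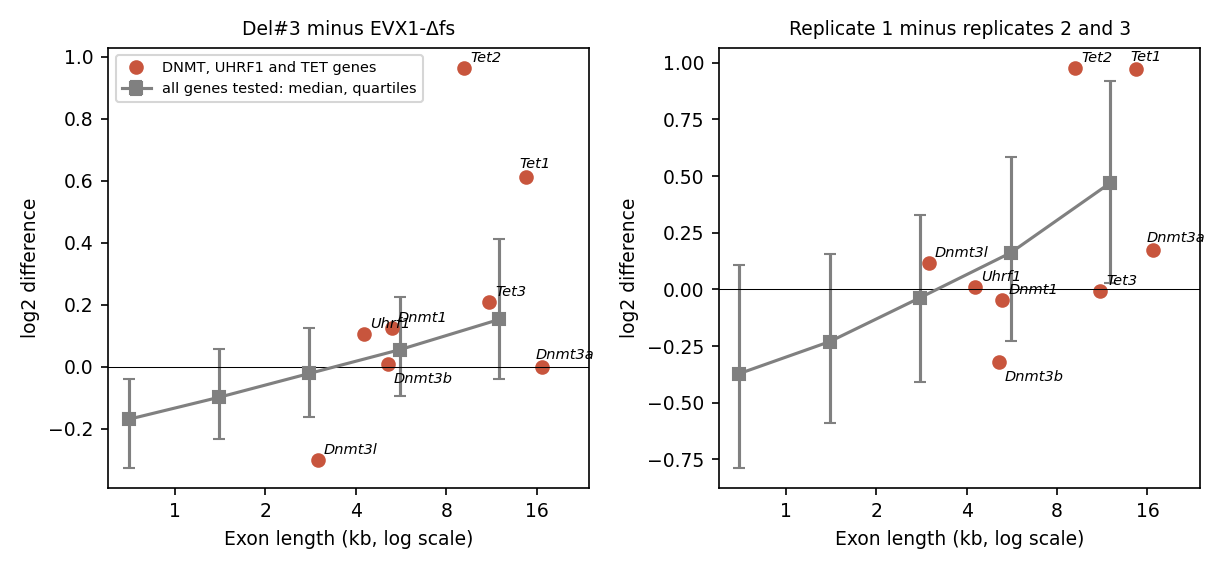
log2 difference against exon length (kb, log scale) for Del#3 minus EVX1-Δfs (left) and for replicate 1 minus replicates 2 and 3 (right), with the 8 tested genes in red and, in grey, the median and quartiles of all genes tested in 5 length classes, each drawn at a position inside its class. The median rises with length in both panels, from -0.17 to 0.15 on the left and from -0.37 to 0.47 on the right, and *Tet1* and *Tet2* lie above the upper quartile of their class in both.

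*Tdg* (chr10:82092573-82113544, plus strand) had 1, 6 and 1 reads in EVX1-Δfs replicates 1 to 3 and 1, 3 and 5 reads in Del#3, in all 8 and 9. It was above only 4.94% of the listed genes. On average neither line was above the floor of 3 reads per library, so no fold change is given. *Tdg* also has the most copies of the 9 genes in the genome: 4 other loci of NCBIM37 match its longest coding transcript at 98.6% to 99.5% identity and cover 86.4% of it, and no copy at 95% identity or more was found for 7 of the other genes. They lie on chromosomes 7, 10, 15 and 19. Of the 100-base windows of that transcript, 66.0% occur unchanged in at least 1 copy. The following stretch of the *Tdg* coding sequence is shown because all 4 copies hold it without a mismatch, so that a read from it has 5 equal places in the genome.

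*Tdg*, chr10:82111373-82111432 of NCBIM37, plus strand: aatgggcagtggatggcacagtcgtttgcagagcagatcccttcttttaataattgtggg

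HTSeq at its standard settings leaves out reads that are reported at several places, and how many reads *Tdg* lost in this way was not tested. With so few reads and near-identical copies, the count of *Tdg* is uncertain as a measure of its expression. Of the exon bases of *Tdg*, 6.83% also overlap *Glt8d2* on the opposite strand, and whether this affected the count was not tested.

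Ratios between genes do not depend on the scaling of a library, and 6 of them were compared between the lines. For genes of unlike length, a ratio still holds the differences by length between libraries described above. *Dnmt3b* stood to *Dnmt3a* at 34.3 ± 9.20 (SD, n = 3) in EVX1-Δfs and at 34.1 ± 6.31 (SD, n = 3) in Del#3, per length. *Uhrf1* stood to *Dnmt1* at 0.656 ± 0.0647 and 0.649 ± 0.0954 (SD, n = 3 each). The ratio of *Tet1* to *Tet2* was the only one whose lines did not overlap. It was 3.45, 3.49 and 3.31 in EVX1-Δfs and 2.55, 2.46 and 2.91 in Del#3, with means of 3.42 ± 0.0928 and 2.64 ± 0.239 (SD, n = 3 each). The difference reached p = 0.1 by a two-sided exact permutation test, the smallest p possible, and 0.6 adjusted over the 6 ratios. *Dnmt3l* stood to the sum of *Dnmt3a* and *Dnmt3b* at 0.0239 ± 0.00513 and 0.0191 ± 0.00304 (SD, n = 3 each), with an exact permutation p of 0.2. For the ratio of *Tet1* to *Tet3* the exact permutation p was 0.4, and the ratio of *Tdg* to *Tet1*, the last of the 6, rests on too few reads to be read.

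Differences between the 3 replicate numbers, taken as days, were tested in both lines at once, with limma's F test for the replicate number. Of the 8 genes, 0 were called, against 4.24% of all genes tested. Before adjustment 2 of the 8 were under 0.05, close to the 27.7% of all genes. *Tet1* came closest. Relative to replicate 1 it was lower by 1.01 in replicate 2 and by 0.93 in replicate 3 (standard error 0.27 each, adjusted p = 0.0865 by limma). It was called when EVX1-Δfs replicate 2 or 3 or Del#3 replicate 3 was left out (adjusted p = 0.0286, 0.0225 and 0.0121 by limma), in fits that called 2217, 2401 and 3175 of all genes. Its adjusted p-value was 0.625 after the correction for length and GC content. In *Tet1* both replicate 1 libraries lay above the other 4 libraries, a pattern of 22.2% of all genes tested. For *Tet2* limma's adjusted p-value between days was 0.177. *Dnmt3b* was 0.60 higher in replicate 2 than in replicate 1 (standard error 0.25, adjusted p = 0.224 by limma). In *Dnmt3b* and *Uhrf1* both replicate 2 libraries were above the other 4, as in 10.8% of genes. With scaling to total reads this held for *Dnmt3b* and not for *Uhrf1*. For *Dnmt1*, *Dnmt3a*, *Dnmt3l*, *Uhrf1* and *Tet3*, the adjusted p-values between days ranged from 0.571 to 0.989 by limma.

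**Figure D5:**
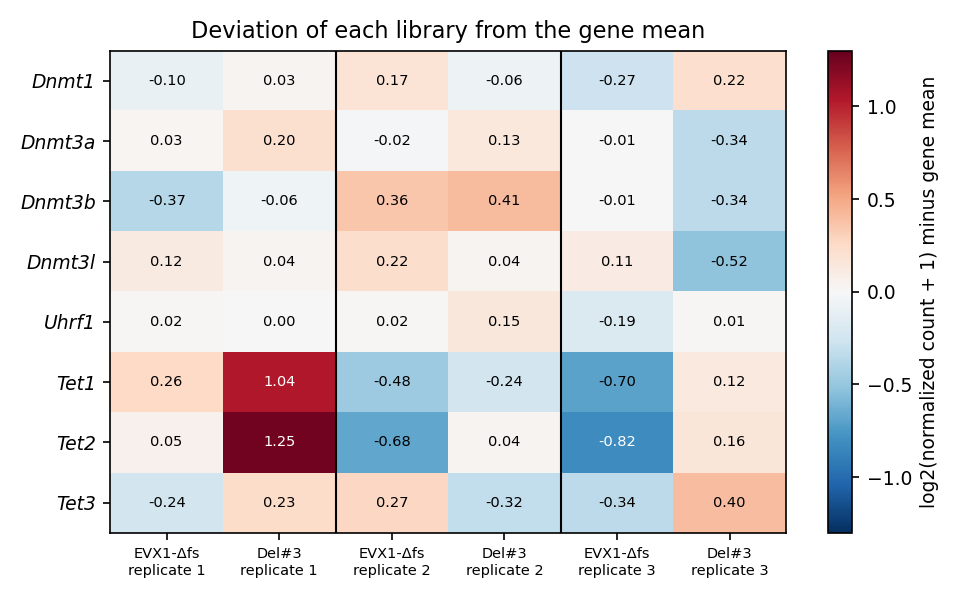
Deviation of each library from the gene's mean, in log2(normalized count + 1), for the 8 genes that passed the filter, with same-numbered libraries side by side. Del#3 replicate 1 stands out at 1.04 for *Tet1* and 1.25 for *Tet2*, and both replicate 2 libraries are positive for *Dnmt3b*, at 0.36 and 0.41.

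Likeness between genes was described by Pearson's r of log2 values over the 6 libraries, which share lines, replicate numbers and depth, and has no p-value. *Tet1* and *Tet2* were the most alike of the 36 pairs (r = 0.97), followed by *Dnmt1* and *Tet3* (r = 0.91) and by *Dnmt3a* and *Dnmt3l* (r = 0.75). *Dnmt3b* and *Tet1* were at -0.45. Among 9122 or 9123 other genes with a mean of at least 100 normalized counts, those nearest to *Tet1* were *Nfat5* (r = 0.995) and *Qser1* (r = 0.987), and those nearest to *Tet2* were *Ubn2* (r = 0.990) and *H2-Eb2* (r = 0.982). In this order, these have 18.4, 8.97, 21.5 and 2.21 kb of exons. *Dnmt3b* was most like *Myh14* (r = 0.993) and *Hexa* (r = 0.981), and *Dnmt3l* most like *Tdh* (r = 0.996) and *Lrig3* (r = 0.986). *Dnmt3a* was nearest to *Rem2* (r = 0.98) and *Tjp3* (r = 0.97), *Dnmt1* to *Zfp865* (r = 0.99) and *Ccnl2* (r = 0.98), *Uhrf1* to *Abhd4* (r = 0.96) and *Rbm14* (r = 0.96), and *Tet3* to *Cdk11b* (r = 0.99) and *Wasf3* (r = 0.98). For *Tdg*, *Pcif1* and *H1fx* came first (r = 0.989 and 0.985), over 1 to 6 reads of *Tdg* a library. With 6 libraries, many genes come as close: 203 had an r over 0.9 with *Tet1* and 15 with *Dnmt3l*.

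Partners of the 9 genes were counted over whole lists. Of 14 cofactors of maintenance and targeting, 0 were called in either direction by limma, with a median log2 fold change of 0.078, against 0.0022 over all genes tested. The most abundant were *Trim28*, the corepressor that protects imprints, with a log2 fold change of 0.11 (standard error 0.27), and the histone methyltransferase *Ehmt2*, with a log2 fold change of 0.17 (standard error 0.21). Of 8 readers of methylated CpG, 0 were called, with a median of 0.23. *Mbd3*, a subunit of the NuRD complex, led by level, with a log2 fold change of 0.13. Of 13 tested genes of base excision repair and deamination, 0 were called, with a median of -0.12. *Parp1* was at 0.070 and *Apex1*, the endonuclease that acts after TDG, at -0.26. Of 10 genes of the methyl donor cycle, 0 were called, with a median of -0.051. *Ahcy*, which clears the by-product of methylation, was at -0.18 and *Mat2a*, which makes the methyl donor, at -0.21.

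Of these 4 lists, 1 gene was under 0.05 by limma before adjustment, where 1.03% of all genes were, so the count is no result about the lists. This was *Zfp445*, a zinc finger gene with a role in imprint protection, at 434, 164 and 336 normalized counts in EVX1-Δfs and 991, 417 and 452 in Del#3. It was higher in each pair, as 12.1% of all genes were, with a log2 fold change of 0.99 and a standard error of 0.42 (adjusted p = 1.00 without and 0.693 with the replicate block, by limma). *Dppa3*, whose product keeps UHRF1 and DNMT1 from chromatin, was at 89.1, 86.7 and 109 in EVX1-Δfs and at 65.4, 69.7 and 38.4 in Del#3. The lines did not overlap, with Del#3 lower as in 1.8% of all genes tested, while Del#3 was higher without overlap in 1.71%. The log2 fold change of *Dppa3* was -0.74, with a standard error of 0.35 and an adjusted p-value of 1.00 by limma. Both genes are named after their values were seen.

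Among 36 tested imprinted genes, whose methylation these enzymes keep, 0 were called by limma without the block, and 1, *Grb10*, was called with it and by DESeq2, where 0.0233% of all genes were called with the block and 3 genes in all by DESeq2. Before adjustment 2 of the 36 were under 0.05 without the block, against 1.03% of all genes, and 7 with it, against 4.62%. *Grb10* was at 631 to 895 normalized counts in EVX1-Δfs and 1796 to 3348 in Del#3, a log2 fold change of 1.71 (standard error 0.28). Adjusted p-values for it were 0.359 by limma, 0.0197 by limma with the block and 0.000189 by DESeq2, and 0 of the 8 genes studied here were called in the same fits. The other gene under 0.05 without the block, *Nnat*, named after its values were seen, lay the other way, at 1564 to 2180 in EVX1-Δfs and 837 to 1190 in Del#3 (log2 fold change -0.94, standard error 0.24, adjusted p = 1.00 by limma and 0.693 with the block). The median log2 fold change of the imprinted list was 0.14. Of 13 germline genes whose promoters are silenced by methylation, 9 were matched by symbol and only *Tdrkh* passed the filter, at 87.9 to 150.1 normalized counts in EVX1-Δfs and 137 to 177 in Del#3. *Ddx4* was next, at 4.69 to 30.3 over the 6 libraries.

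Pluripotency and germ layer genes, which change with the cell types in an EB, are given beside the enzymes. The naive genes had a median log2 fold change of -0.30 in Del#3, and 0 of the 9 tested were called by limma. Their sum ranged from 3080 to 3920 normalized counts in EVX1-Δfs and from 2970 to 3403 in Del#3. *Tbx3*, which mesoderm also expresses, and *Nanog* were the highest, with log2 fold changes of 0.26 and -0.25. Since *Tbx3* alone was at 1126 to 2023 normalized counts with a difference opposite in sign to the list's median, the sum is not a measure of naive cells. *Zfp42*, a naive marker named after its values were seen, was at 341 to 457 in EVX1-Δfs and 181 to 288 in Del#3 (log2 fold change -0.82, standard error 0.28, adjusted p = 1.00 by limma). Primed epiblast genes had a median of -0.059 and summed to 8895 to 11245 and to 7017 to 11971. *Pou5f1* and *Sox2* led them, at -0.061 and -0.22. Primitive streak genes, with *Eomes* at -0.23 and *Mesp1* at -0.27, had a median of -0.16, endoderm genes of -0.13 and blood and endothelial genes of 0.043, with 0 called in each list by limma. *Cer1* and *Gata4* were at -0.28 and -0.11, and *Kdr* and *Hbb-bh1* at -0.12 and 0.043. Of 3 neural genes only *Sox3* was tested, at 0.59 with 0 called. The part of these genes in the values of the enzymes was not tested.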

How the data were processed

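mRNA-seq of D4 EBs was available for 3 libraries of each line. Per the study's methods, Ion Proton reads were aligned by TopHat2, then by TMAP, against mm9, and HTSeq and DESeq2 were run with standard settings. The annotation and versions are not given in the sources used here. The signal values that the authors deposited are counts divided by a size factor: 100% of them were whole multiples of 1 step per library, within 0.01 of a read, so that reads were recovered. Between 9024579 and 15699124 reads fell on listed genes per library; reads outside these genes were not analysed here, and with 3 libraries a line the spread between libraries limits the precision.

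Lines were compared with limma (version 3.58.1, R 4.3.3) on log2(normalized count + 1) with an intensity trend, over genes passing filterByExpr of edgeR (version 4.0.16, minimum count 10), with Benjamini-Hochberg adjustment over all 12891 genes and a threshold of 0.05. edgeR's quasi-likelihood test and DESeq2 (version 1.42.0) on the recovered reads, other scalings, pseudocounts and filters, a replicate block, and leaving out libraries were alternatives. Per the study's methods, lines compared side by side were started on the same day and each replicate on another day. Replicate numbers were therefore taken as days, although no source used here ties a number to a day. Deviations of same-numbered libraries from their line's mean correlated across genes at 0.74, 0.32 and -0.053 in replicates 1 to 3, and those of differently numbered libraries at -0.66 to 0.42, the highest for EVX1-Δfs replicate 3 with Del#3 replicate 2. Each library is a separate differentiation, in EVX1-Δfs of 1 clone, so p-values measure the spread between differentiations. The number of clones behind the Del#3 libraries is not given in the sources used here. Exon lengths were matched by symbol for 94.3% of listed genes. Copies were sought with megablast at 95% identity over 200 bases or more. The limma fits were checked on simulated counts with differences placed in known genes. For the comparison of the lines, these counts held no replicate or length effect. The check therefore does not measure sensitivity in these data.

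Named genes were the 9 members, the 2 genes most like each, and of each list the genes called in any of 3 fits or otherwise the 2 most abundant; 1 gene that this rule names is not reported here. *Zfp445*, *Dppa3*, *Zfp42* and *Nnat* were named outside this rule, after their values were seen. The members and lists were chosen with earlier results of these data known. Dates stand in place of symbols in 20 rows, which were kept.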

Additional observations from a re-analysis of the deposited data

How the results depend on the processing

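Over 20 alternatives to the comparison of the lines, 0 of the 8 tested genes were called (*Tdg* entered only 3 of them and was not called), also with the replicate block in limma, edgeR and DESeq2, and *Dnmt1*, *Dnmt3l*, *Uhrf1*, *Tet1*, *Tet2* and *Tet3* kept their direction in each. The block changed no call among them. The lowest adjusted p-value was 0.810, for *Tet2*. The log2 fold changes ranged from 0.24 to 0.90 for *Tet1*, from 0.58 to 1.23 for *Tet2*, from -0.41 to -0.11 for *Dnmt3l*, from 0.024 to 0.24 for *Dnmt1*, from 0.037 to 0.17 for *Uhrf1* and from 0.060 to 0.42 for *Tet3*. *Dnmt3a*, near 0 in the main comparison, was at -0.22 after the length and GC correction, with and without the block, at -0.087 with both replicate 1 libraries left out, and from -0.10 to 0.17 when single libraries were left out. *Dnmt3b* was at -0.035, -0.14 and from -0.19 to 0.19 in the same order. These corrections were chosen after the data were seen, and the cause was not tested.

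The number of all genes called between the lines was 2, and 10 with the replicate block in DESeq2, with 2 or 3 in the other alternatives. Between replicate numbers, 546 genes were called, 317 with total reads for scaling, 347 with TMM factors, 274 after the length and GC correction, and from 197 to 3175 when single libraries were left out, where 0 or 1 of the 8 tested genes was called. Leaving out libraries moved the log2 difference of the *Dnmt3b* to *Dnmt3a* ratio from -0.19 to 0.20, that of *Uhrf1* to *Dnmt1* from -0.13 to 0.078 and that of *Tdg* to *Tet1*, which rests on 1 to 6 reads of *Tdg* and is not read as a difference, from -1.13 to 1.04. The fewest reads lay behind *Tdg*, at 1 to 6, and *Tet2*, at 17 to 110 a library.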
